A study of Mus musculus with 20 samples.

Results

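Resting oocytes of control mice were compared at postnatal day 10 (P10) and postnatal day 5 (P5). A gene belonged to the comparison if its TPM, a read density scaled to gene length and library size, was at least 1 in at least 2 of the 4 libraries. This left 13932 of the 53722 genes in the oocyte table. Of these, 8579 reached TPM 1 in all 4 libraries, 2413 only in P5 libraries and 180 only in P10 libraries. Both groups were non-growing oocytes (NGO) from mouse ovary on a background mixed from C57BL/6, 129S1/Sv and FVB/NJ, and each had 2 libraries. The P5 controls were Chd4 f/+; Ddx4-Cre Tg/+, that is, they carried 1 floxed allele of the chromatin remodelling ATPase Chd4 and a Cre transgene driven by the germ cell promoter of Ddx4. The P10 controls were Chd4 f/f with no Cre. Age, the Chd4 allele and Cre therefore cannot be told apart in this comparison, and the groups were the controls of different crosses. The series also held P1 controls of the P5 genotype, growing oocytes (GO) of the P10 control genotype, and Chd4 knockouts made with Ddx4-Cre at P5 and with Gdf9-iCre, driven by an oocyte promoter, at P10. The labels do not say whether replicates were separate animals, so p-values measure only the spread between these libraries.

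A mouse ovary forms its lifetime stock of primordial follicles around birth, each with a small oocyte arrested in meiotic prophase. Most of these oocytes stay dormant while a few at a time are recruited to grow, build a zona pellucida and store maternal mRNA. Dormancy depends on the transcription factor FOXO3, which the PI3K and AKT pathway drives out of the nucleus when an oocyte is activated. The factors SOHLH1, LHX8, NOBOX and FIGLA are known to be needed for primordial follicles to form, survive or start growth.

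The libraries held 21415317 and 21704287 reads at P5 and 22626364 and 19633956 at P10, as recovered from TPM and gene length. P10 libraries listed fewer genes at TPM 1 or more (10940 and 10213) than P5 libraries (15453 and 14305). Dppa3, a maternal factor of oocytes, was the most abundant gene in all 16 oocyte libraries of the series. All 10 oocyte markers were at TPM 1 or more in all 4 libraries, and their summed TPM was 79140.2 and 79232 at P5 and 61049.8 and 66211 at P10. Dppa3 alone, with 7.05 and 7.07% of all TPM at P5 and 5.80 and 6.25% at P10, made up most of these sums. The summed TPM of 13 granulosa cell markers was 21.7 and 8.98 at P5 and 4.56 and 6.26 at P10. The defining granulosa gene Foxl2 was at 0 in both P10 libraries and at 0.0340 and 0.102 TPM at P5. For 11 stroma and theca markers the sum was 1.21 and 5.52 at P5 and 6.605 and 0.885 at P10, with Pdgfra and Cyp11a1 at 0 in all 4 libraries. For 6 endothelium markers it was 11.2 and 4.63 and 5.86 and 0.6695, with Emcn at 0 throughout. For 8 blood and immune markers it was 7.96 and 0.361 and 0 and 4.05, with the leukocyte gene Ptprc at 0 throughout. Other members of each list were detected. The highest values were 7.96 TPM of Krt8, 6.76 of Pecam1 and 4.49 of Cd68 in P5 replicate 1, and 3.285 of Col1a2 in P10 replicate 1. The granulosa marker Kitl was at 6.12 and 0.732 TPM at P5 and 4.45 and 6.12 at P10. In such bulk libraries fewer cells of a type and less RNA per cell cannot be told apart.

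By limma, 1135 genes were higher and 3504 lower at P10 than at P5, out of 20470 genes tested over the oocyte table. These are 5.54% and 17.1% of the genes tested, or 22.7% in either direction. Of the 13932 member genes, 1129 were called higher and 3425 lower. Most genes of the lists below are members, so the counts over members are their closer background. The filter itself shaped this split. The 2413 genes at TPM 1 only in P5 libraries gave 1475 of the lower calls and 0 higher. The 180 genes at TPM 1 only in P10 libraries gave 100 higher and 0 lower. Among the 8579 genes at TPM 1 in all 4 libraries, 992 were higher and 1448 lower. In all, 4639 genes were called, and without P5 replicate 1 the count was 2591. The median log2 difference, P10 minus P5 on the log2(TPM + 1) scale, was -0.47 over all genes tested. The excess of lower genes depended on the scaling. With quantile normalization 2219 genes were higher and 2096 lower (51.4% of calls higher, against 24.5% as deposited) and the median was 0.03. With median-of-ratios scaling the counts were 1719 and 2222 (43.6% higher) and the median was -0.20. Voom, a count test on reads recovered from TPM, scaled each library only by its total reads. It therefore cannot show whether the excess depends on the scaling. It called 902 genes higher and 4988 lower of 19833 tested (15.3% higher), with a median of -1.14. Of the higher genes with a GC value, 1078 of 1104 (97.6%) passed the test in the same direction under quantile normalization, median-of-ratios scaling and centring by GC content. Of the lower genes, 1173 of 3414 (34.4%) did. A gene written below as risen or fallen passed the test as deposited and under these 3 scalings, and had no overlap between the ages, unless its sentence says otherwise. Lists are counted on the TPM scale, with the calls that held under the 3 scalings. Beside these stand the range of the counts when 1 of the 4 libraries was left out, and the counts with GC centring and with voom.

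**Figure D1:**
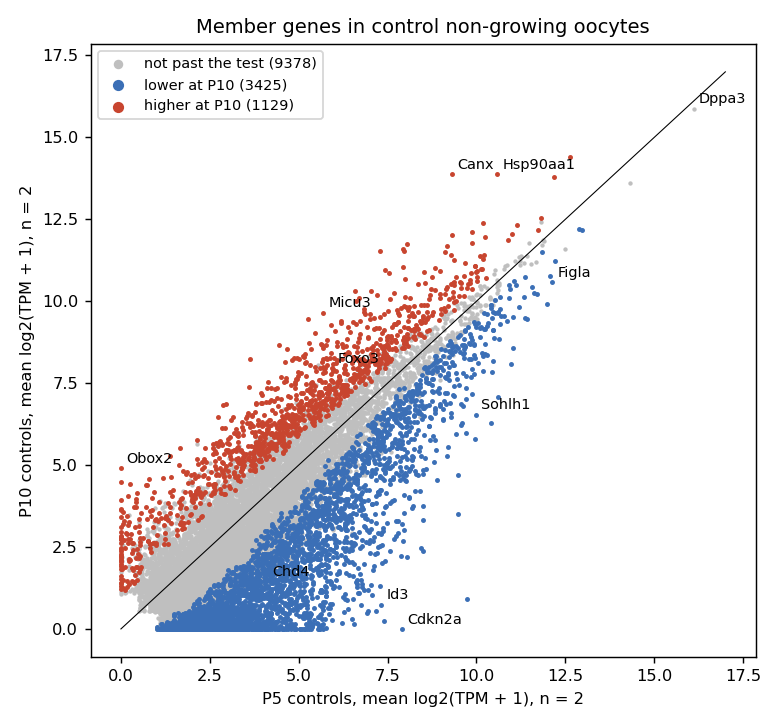
Mean log2(TPM + 1) of 13932 member genes in the 2 P5 control libraries (x axis) and the 2 P10 control libraries (y axis), with genes past the limma test in red (1129 higher at P10) and blue (3425 lower at P10) and the diagonal as a line. Canx and Hsp90aa1 lie far above the diagonal, and Cdkn2a and Id3 lie near the bottom edge.

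The change from P5 to P10 followed the base composition of the transcripts. Median GC content was 45.1% for higher genes, 53.3% for lower genes and 48.5% for the rest. Member genes were ordered by GC content and split into 10 bins of equal size, and the median log2 difference ran from 0.27 in the lowest bin to -1.66 in the highest. Across 13573 member genes Spearman's rho with GC content was -0.44 and Pearson's r was -0.43. These genes come from the same libraries and are not independent. The knockouts, which share no library with the controls, had a rho of -0.41. Values were 0.16 for P5 against P1 controls and -0.03 for GO against NGO controls at P10, comparisons that each share 2 libraries with this one. The mean GC content weighted by TPM was 49.1 to 49.6% in the 8 libraries from P1 and P5 and 46.5 to 47.4% in the 8 from P10. This difference cannot be told apart from age, cross or any batch of libraries, in controls or in knockouts. When genes were centred within strata of GC content, 1815 were higher and 1368 lower (57.0% of calls higher, median 0.10).

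**Figure D2:**
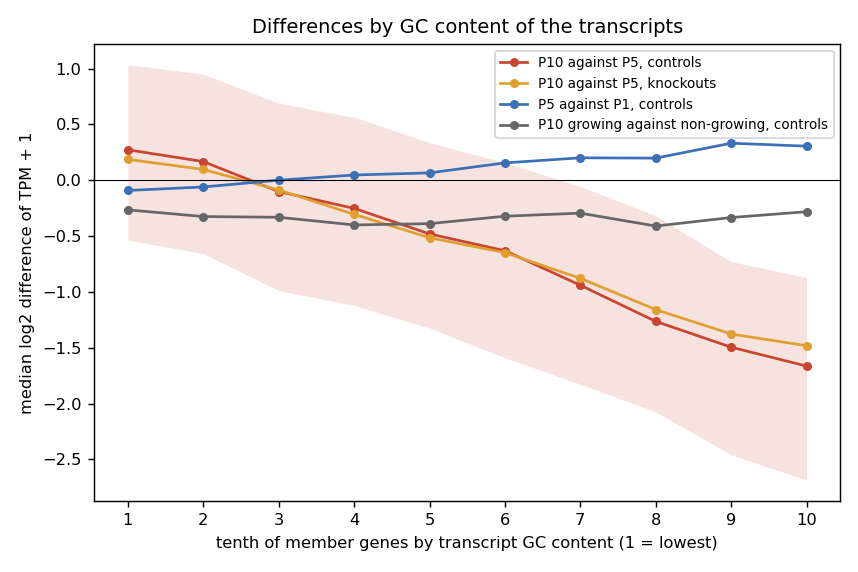
Median log2 difference (y axis) in each of 10 equal bins of the member genes ordered by transcript GC content (x axis), with the interquartile range shaded for the control comparison. In P10 against P5 the line falls from 0.27 to -1.66 in controls, and the knockout line runs beside it, while the 2 other control comparisons stay between -0.41 and 0.33.

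Chd4 (ENSMUSG00000063870, GRCm38 chromosome 6, 125095981 to 125130591, protein coding), the gene floxed in this series, was measured over the whole gene. It stood at 14.5 and 17.9 TPM at P5 and 1.63 and 1.85 at P10. Both P10 libraries were far below both P5 libraries (log2 difference -2.64, standard error 0.50, limma adjusted p = 0.00275). P1 controls held 24.7 and 31.2 TPM and P10 GO controls 1.56 and 2.96. CHD4 is the ATPase of NuRD, a complex that joins remodelling to histone deacetylation. In the NuRD complex list, 1 of 15 tested genes was called higher and 9 lower (median log2 difference -1.03), and 1 and 3 of these calls held under the 3 scalings (with 1 library left out, 1 higher and 5 to 7 lower, with GC centring 3 and 3, with voom 1 and 10). The deacetylase gene Hdac1 fell from 72.2 and 59.4 TPM at P5 to 9.93 and 7.51 at P10 (log2 difference -2.79, adjusted p = 0.000863). Its paralog Hdac2 rose from 44.3 and 29.7 TPM at P5 to 166 and 147 at P10 (log2 difference 2.08, adjusted p = 0.000252). By TPM, a level per length, Hdac1 was the higher of the pair in both P5 libraries and Hdac2 in both P10 libraries. Among remodelling ATPases, 3 of 17 tested genes were called higher and 5 lower (median log2 difference -0.41), and 2 and 0 of these calls held under the 3 scalings (with 1 library left out, 1 to 2 higher and 0 to 5 lower, with GC centring 2 and 0, with voom 1 and 5). Smarca5, which encodes the ISWI ATPase SNF2H, rose from 76.5 and 63.2 TPM at P5 to 233 and 192 at P10 (log2 difference 1.59, adjusted p = 0.000243).

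The 10 largest rises among named genes were in Obox2, Ankmy2, Canx, Twf1, Zfp317, Micu3, Tmem170, Ccdc125, Tmeff1 and Klhl42. Canx, for the membrane chaperone calnexin of the endoplasmic reticulum, was at 558 and 721 TPM at P5 and 17028 and 13387 at P10, 23.8-fold more by mean TPM (log2 difference 4.57, standard error 0.18, limma adjusted p = 2.19e-07). GO controls were lower than P10 NGO, at 8243 and 7521 TPM. Twf1, which encodes the actin-binding protein twinfilin, was at 149 and 159 TPM at P5 and 3559 and 2517 at P10 (log2 difference 4.27, adjusted p = 1.6e-06). Zfp317, a zinc finger gene, was at 18.01 and 23.9 TPM at P5 and 468 and 352 at P10. Micu3, a regulator of mitochondrial calcium uptake, was at 50.9 and 50.2 TPM at P5 and 924 and 698 at P10. For both, P10 NGO exceeded every other control library, and Micu3 stood at 116 and 94.6 TPM in P1 NGO and 44.6 and 29.97 in GO. Ankmy2 was at 7.68 and 16.9 TPM at P5 and 384 and 231 at P10. Klhl42, for an adaptor of a ubiquitin ligase, was at 9.38 and 13.4 TPM at P5 and 204 and 138 at P10. Tmem170 was at 25.1 and 23.7 TPM at P5 and 448 and 304 at P10. Both remaining genes started near 0. Ccdc125 was at 0.179 and 0.135 TPM at P5 and 17.7 and 13.6 at P10. Tmeff1, which encodes a transmembrane protein with EGF-like and follistatin-like domains, was at 0.911 and 0.566 TPM at P5 and 16.98 and 30.6 at P10. Tmeff1 missed the test without P10 replicate 1, P10 replicate 2, P5 replicate 1 or P5 replicate 2 (adjusted p = 0.0582, 0.127, 0.0991 and 0.106).

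The largest gains in TPM itself were in mt-Cytb, Canx, Hsp90aa1, Gtsf1 and Ptges3. Hsp90aa1, the inducible cytosolic HSP90, was at 1553 and 1524 TPM at P5 and 16629 and 13599 at P10 (log2 difference 3.29, adjusted p = 1.6e-06). Ptges3, which encodes the HSP90 co-chaperone p23, was at 1234 and 1106 TPM at P5 and 5782 and 4987 at P10 (log2 difference 2.20, adjusted p = 3.68e-06). Gtsf1, a factor of the piRNA pathway, was at 4325 and 4946 TPM at P5 and 15741 and 12743 at P10 (log2 difference 1.61, adjusted p = 2.58e-06). For each of these the lower P10 library was above the higher P5 library.

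Cdkn2a had the largest fall among named genes. This locus encodes the cell cycle inhibitor p16INK4a and the p53 activator p19ARF. It was at 284 and 199.7 TPM at P5 and 0 and 0 at P10. A count of 3 reads per library would have given 0.332 and 0.366 TPM at P10, so the group mean was at least 693-fold lower at P10 (adjusted p = 2.33e-06). Both GO control libraries were also at 0, and P1 libraries were at 253 and 288 TPM. Id3, an inhibitor of basic helix-loop-helix factors, was at 201 and 125 TPM at P5 and 0.434 and 0.958 at P10, after 1107 and 1167 at P1 (log2 difference -6.57, adjusted p = 1.58e-06). Hes6, of the same family as the Notch effector gene Hes1, was at 458 and 288 TPM at P5 and 9.03 and 1.66 at P10. These genes were abundant at P5 and at a few TPM or less in P10 libraries, with Hes6 replicate 1 the highest. The other large falls were in genes of varied roles. Nrbp1, for a pseudokinase, was at 125 and 117 TPM at P5 and 0.218 and 0.643 at P10. Fahd2a was at 127 and 119.8 TPM at P5 and 0.443 and 0.489 at P10. Tmed1, for a cargo receptor of the early secretory pathway, was at 112 and 77.1 TPM at P5 and 0.256 and 0 at P10. None of these 3 genes reached TPM 1 at P10. Ntmt1, for an N-terminal methyltransferase, was at 164 and 107 TPM at P5 and 1.44 and 0.715 at P10. Pycrl, for a proline synthesis enzyme, was at 103 and 110.3 TPM at P5 and 0.387 and 0.961 at P10. Abcf2, of the ABC protein family, was at 148 and 165 TPM at P5 and 2.88 and 0.557 at P10. Yif1b, of vesicle traffic from the endoplasmic reticulum, was at 389 and 304 TPM at P5 and 13.8 and 1.05 at P10. In each case both P10 libraries lay below both P5 libraries, as the rule for naming these genes required.

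The largest losses of TPM itself were in Ldhb, Rpl32, Figla, Tmsb10 and Hint1. Rpl32, for ribosomal protein L32, was at 3984 and 4176 TPM at P5 and 985 and 954 at P10. Hint1, for a nucleotide hydrolase, was at 3925 and 4632 TPM at P5 and 1502 and 1996 at P10. Both fell. Ldhb, a lactate dehydrogenase subunit, was at 8192 and 7767 TPM at P5 and 3919.9 and 5333 at P10. Tmsb10, an actin monomer binder, was at 7511 and 7503 TPM at P5 and 4679 and 4705 at P10. The direction of these last genes turned under GC centring, to 0.15 for Ldhb (adjusted p = 0.666) and 0.66 for Tmsb10 (adjusted p = 0.00415).

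Among transcription factors of oocytes, 4 of 18 tested genes were called higher and 7 lower (median log2 difference -0.07), and 4 and 6 of these calls held under the 3 scalings (with 1 library left out, 3 to 4 higher and 6 to 7 lower, with GC centring 4 and 6, with voom 4 and 7). Sohlh1, an early regulator of oocyte differentiation, fell from 1050.5 and 959 TPM at P5 to 95.2 and 89.2 at P10 (log2 difference -3.43, standard error 0.29, limma adjusted p = 1.08e-05). GO controls were lower still, at 1.12 and 0.935 TPM. Its partner Sohlh2 fell from 167 and 181 TPM at P5 to 24.1 and 11.8 at P10 (log2 difference -3.29, adjusted p = 0.00488). Nobox, a homeobox factor, fell from 345 and 341 TPM at P5 to 126 and 69.6 at P10 (log2 difference -1.86, adjusted p = 0.000197). Figla, which is known to activate zona pellucida genes, fell from 4562 and 4411 TPM at P5 to 1381 and 1704 at P10 (log2 difference -1.55, adjusted p = 0.000451). In these 4 genes the 2 libraries of an age were closer to each other than to those of the other age. Hes1, a repressor downstream of Notch, fell from 147 and 71.2 TPM at P5 to 10.4 and 4.28 at P10. Stat3, a cytokine-responsive factor, fell from 114 and 117 TPM at P5 to 15.7 and 5.51 at P10. Lhx8, a LIM homeobox factor of the same network as Sohlh1, did not pass the test at 135 and 142 TPM at P5 and 146 and 148 at P10 (adjusted p = 0.955).

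In the opposite direction, Foxo3 rose from 57.2 and 63.2 TPM at P5 to 304 and 199 at P10 (log2 difference 2.02, adjusted p = 0.000243). Both P10 libraries exceeded the P5 libraries and the P1 libraries, the last at 95.01 and 89.5 TPM. Taf4b, for a germ cell subunit of the general factor TFIID, rose from 6.51 and 11.8 TPM at P5 to 43.8 and 59.8 at P10 (log2 difference 2.41, adjusted p = 0.00177). Taf7l, for another TFIID subunit of germ cells, was at 41.7 and 4.79 TPM at P5 and 85.1 and 71.8 at P10 (adjusted p = 0.0461), and its P5 replicates stood far apart. Yy1, a zinc finger factor, rose from 12.9 and 12.1 TPM at P5 to 41.95 and 41.7 at P10. Tbpl2, the TATA-binding protein paralog of oocytes, was at 271 and 278 TPM at P5 and 380.1 and 584 at P10 and did not pass the test (adjusted p = 0.113). Taf7l missed the test without P10 replicate 1, P10 replicate 2 or P5 replicate 2 (adjusted p = 0.149, 0.12 and 0.378).

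**Figure D3:**
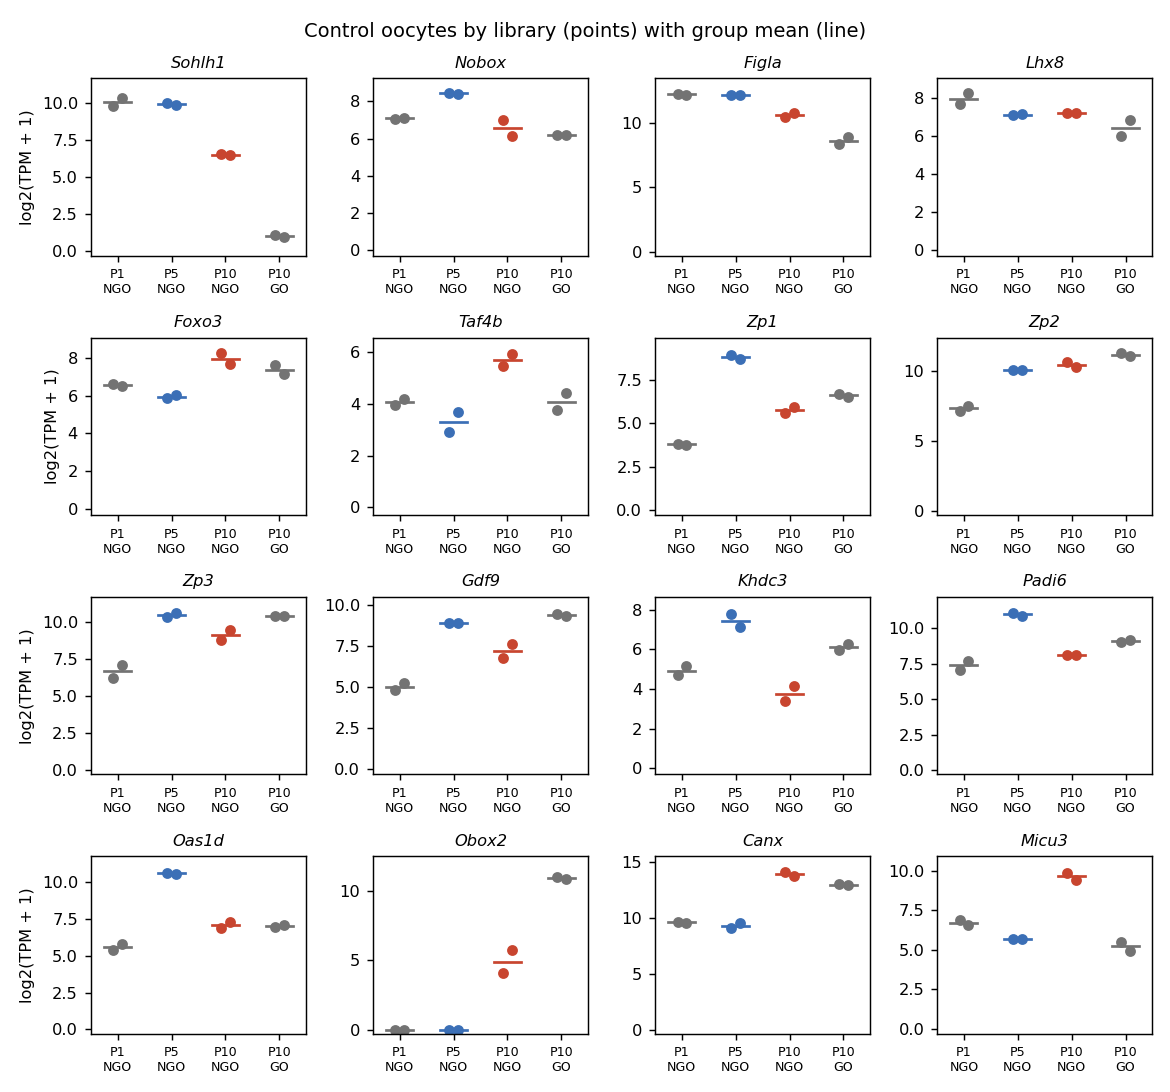
log2(TPM + 1) of 16 genes in each control library (points, 2 per group) with group means (lines) for P1, P5 and P10 NGO and P10 GO. Sohlh1, Nobox, Figla, Zp1, Khdc3, Padi6 and Oas1d are lower in P10 NGO than in P5 NGO, Foxo3, Taf4b, Canx and Micu3 are higher, and Obox2 is far below its GO level.

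The promoters of Sohlh1, Figla and Nobox are shown because these 3 regulators fell together and because SOHLH1 and FIGLA belong to a class of factors that binds E-boxes. Each line gives the 250 bases before the RefSeq start (GRCm38.p6), 5′ to 3′ on the strand of the gene, with every match to the E-box CANNTG in capitals. The windows are chr2:25847249-25847498 on the minus strand for Sohlh1, chr6:86016941-86017190 on the plus strand for Figla and chr6:43309555-43309804 on the minus strand for Nobox.
Sohlh1: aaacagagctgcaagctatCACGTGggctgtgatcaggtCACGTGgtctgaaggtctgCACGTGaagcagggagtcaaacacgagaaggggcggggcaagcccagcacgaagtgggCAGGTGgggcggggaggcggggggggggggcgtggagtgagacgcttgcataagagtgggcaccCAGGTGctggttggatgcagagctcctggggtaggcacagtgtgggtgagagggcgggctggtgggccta
Figla: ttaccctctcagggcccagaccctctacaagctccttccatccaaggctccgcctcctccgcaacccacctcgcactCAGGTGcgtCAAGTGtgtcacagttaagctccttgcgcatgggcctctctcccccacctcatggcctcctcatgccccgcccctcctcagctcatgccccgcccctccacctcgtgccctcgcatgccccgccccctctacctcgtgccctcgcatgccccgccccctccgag
Nobox: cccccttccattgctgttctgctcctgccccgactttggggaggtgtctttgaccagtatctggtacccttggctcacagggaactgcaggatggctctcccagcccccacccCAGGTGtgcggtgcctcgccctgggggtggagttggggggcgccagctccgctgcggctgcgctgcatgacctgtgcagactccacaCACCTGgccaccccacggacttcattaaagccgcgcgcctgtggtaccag
The window of Sohlh1 held 5 matches to CANNTG, of which 3 read CACGTG. Those of Figla and Nobox held 2 matches each and no CACGTG. A match on one strand is always a match on the other, and each CACGTG also counts as a CANNTG. Among 32851 RefSeq promoter windows of the same length 66.2% held CANNTG, 6.02% held CACGTG and 0.0609% held 3 or more CACGTG. The threshold of 3 equals the count in the Sohlh1 window, so the last share only describes that window. GC content was 64.4% for Sohlh1, 67.2% for Figla and 65.2% for Nobox, and the median over all windows was 52.4%.

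Genes of the zona pellucida and of secreted oocyte factors differed among themselves. In the zona pellucida and secreted factors list, 0 of 18 tested genes were called higher and 6 lower (median log2 difference -0.59), and 2 of these calls held under the 3 scalings (with 1 library left out, 0 higher and 3 to 5 lower, with GC centring 3 and 3, with voom 0 and 7). At an unadjusted p under 0.05 limma had 2 of them higher and 7 lower. Zp1, for the zona protein that cross-links the filaments, fell from 494 and 415 TPM at P5 to 46.96 and 60.4 at P10 (log2 difference -3.06, adjusted p = 2.93e-05). Zp2, for the sperm-binding zona protein, was at 1092 and 1104 TPM at P5 and 1588 and 1267 at P10 and did not pass the test (adjusted p = 0.384). Zp3, for the protein that forms filaments with ZP2, was at 1283 and 1536 TPM at P5 and 442 and 709 at P10 (adjusted p = 0.0138). Its log2 difference was -0.06 with GC centring (adjusted p = 0.936). Astl, for the protease ovastacin that cleaves ZP2 after fertilization, fell from 125 and 65.1 TPM at P5 to 16.96 and 2.904 at P10. Gdf9, a growth factor for granulosa cells, was at 496 and 487 TPM at P5 and 109.7 and 197 at P10. Both P10 libraries were lower (adjusted p = 0.00951), but the test was missed with GC centring (adjusted p = 0.0905). Its partner Bmp15 was at 7.84 and 9.895 TPM at P5 and 5.72 and 16.7 at P10, against 599 and 391 in GO, and did not pass the test (adjusted p = 0.939). Kit, for the receptor through which granulosa cells activate the oocyte, was at 60.3 and 67.7 TPM at P5 and 73.3 and 55.5 at P10 with overlapping ages. In the list of growing oocyte markers, 0 of 7 tested genes were called higher and 4 lower (median log2 difference -1.26), and 1 of these calls held under the 3 scalings (with 1 library left out, 0 higher and 1 to 3 lower, with GC centring 0 and 1, with voom 0 and 4). At an unadjusted p under 0.05 limma had 0 of these markers higher and 5 lower. Of the 10 general oocyte markers, 1 was called higher and 6 lower (median log2 difference -1.02). Of these calls 1 and 3 held under the 3 scalings (with GC centring 1 and 3, with voom 1 and 7). Zp3 missed the test without P10 replicate 1, P5 replicate 1 or P5 replicate 2 (adjusted p = 0.107, 0.0509 and 0.0847). Gdf9 missed the test without P10 replicate 1 or P5 replicate 1 (adjusted p = 0.0775 and 0.059).

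Maternal effect genes divided between both directions. In the maternal effect and subcortical complex list, 10 of 32 tested genes were called higher and 10 lower (median log2 difference -0.05), and 9 and 5 of these calls held under the 3 scalings (with 1 library left out, 3 to 7 higher and 7 to 9 lower, with GC centring 10 and 5, with voom 7 and 12). The genes that fell include parts of the subcortical maternal complex, which embryos need for their first divisions. Khdc3 was at 219 and 139 TPM at P5 and 9.48 and 16.7 at P10 (log2 difference -3.69, adjusted p = 3.34e-05). Padi6 was at 2168 and 1889 TPM at P5 and 271 and 270.1 at P10 (log2 difference -2.90, adjusted p = 7.31e-05). Tle6, whose product is in the same complex, was at 332 and 309 TPM at P5 and 101 and 61.6 at P10 (log2 difference -2.01, adjusted p = 0.000224). All 3 were lower in both P10 libraries. Their fellow member Ooep did not pass the test at 1269.8 and 1626 TPM at P5 and 1792 and 1854 at P10 (adjusted p = 0.112). Oas1d, of the oocyte 2′-5′ oligoadenylate synthetase family, fell from 1561 and 1530.4 TPM at P5 to 118 and 155 at P10 (log2 difference -3.51, adjusted p = 4.7e-05). H1f8, the oocyte linker histone, was at 927 and 740.1 TPM at P5 and 166 and 158 at P10 (log2 difference -2.35, adjusted p = 4.25e-05). It was also lower under quantile and median-of-ratios scaling, and has no value with GC centring. P1 libraries, with 25.2 and 34.9 TPM of Khdc3, 132 and 210.02 of Padi6 and 41.01 and 53.9 of Oas1d, were below the P5 libraries as well. P5 was therefore the highest of the 3 NGO ages for these genes.

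Several of the maternal genes that rose were near 0 at P5 and abundant in growing oocytes. Obox2, an oocyte homeobox gene, was at 0 and 0 TPM at P5 and 15.8 and 51.8 at P10. A count of 3 reads would have given 0.202 TPM in each P5 library, so the group mean was at least 167-fold higher at P10. GO controls held 2086 and 1923, so P10 NGO had 1.69% of the GO mean. Obox1 was at 0 and 0 TPM at P5 and 6.27 and 5.87 at P10, or 0.696% of GO. Nlrp9c, of the oocyte NLRP family, was at 1.099 and 0 TPM at P5 and 5.17 and 6.43 at P10, or 0.858% of GO. Reads of these families can be split between near-identical copies, so the member is uncertain. In all, 36 genes were below TPM 1 in both P5 libraries and at TPM 100 or more in both GO control libraries. Of these, 28 and 30 reached TPM 1 in P10 NGO replicates 1 and 2, at a median of 0.827% and 0.981% of the GO mean. The interquartile range over the 36 was 0.659 to 1.076% in replicate 1 and 0.67 to 1.53% in replicate 2. By limma 18 of the 36 were called higher and 0 lower. The set was chosen by low P5 values, so its members had little room to fall and the levels are a description. Growing oocyte markers summed to 4547 and 4397 TPM at P5, 2627 and 2650.1 in P10 NGO and 6509 and 5877 in GO, and the part of growing oocytes in these values was not tested. Nlrp9c missed the test without P5 replicate 2 (adjusted p = 0.0652).

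The PI3K, AKT, FOXO3 and mTOR pathway is known to decide between dormancy and growth. In the PI3K, Foxo3 and mTOR dormancy control list, 7 of 33 tested genes were called higher and 7 lower (median log2 difference -0.15), and 7 and 2 of these calls held under the 3 scalings (with 1 library left out, 4 to 6 higher and 3 to 8 lower, with GC centring 8 and 2, with voom 6 and 8). Cdkn1b, for the cell cycle inhibitor p27 that restrains activation, rose from 17.2 and 20.9 TPM at P5 to 51.9 and 65.5 at P10 (log2 difference 1.57, adjusted p = 0.00824). Gsk3b, for a kinase that AKT inhibits, rose from 76.3 and 73.3 TPM at P5 to 469 and 326 at P10 (log2 difference 2.37, adjusted p = 7.85e-05). Rheb, for the GTPase that turns mTORC1 on, rose from 104 and 104 TPM at P5 to 245 and 208 at P10 (log2 difference 1.11, adjusted p = 0.000725). Rps6, a ribosomal protein phosphorylated downstream of mTORC1, rose from 579.6 and 561 TPM at P5 to 1409 and 1370.2 at P10 (log2 difference 1.28, adjusted p = 1.37e-05). Rps6kb1, for the kinase through which mTORC1 acts on RPS6, was at 42.6 and 38.7 TPM at P5 and 29.3 and 45.00 at P10 and did not pass the test (adjusted p = 0.835). Eif4ebp1, for the translation repressor that mTORC1 inactivates, fell from 325 and 289 TPM at P5 to 29.2 and 25.8 at P10 (log2 difference -3.44, adjusted p = 7.82e-05). Ddb1, for an adaptor of the CRL4 ubiquitin ligase that maintains oocytes, fell from 24.5 and 24.9 TPM at P5 to 2.02 and 3.84 at P10. Cdkn1b missed the test without P10 replicate 2 or P5 replicate 1 (adjusted p = 0.0525 and 0.0632).

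The survival list had more rises than falls. In the survival list, 5 of 11 tested genes were called higher and 1 lower (median log2 difference 0.89), and 5 and 1 of these calls held under the 3 scalings (with 1 library left out, 2 to 4 higher and 1 to 2 lower, with GC centring 5 and 1, with voom 4 and 2). Mcl1, a BCL2-family survival factor needed by primordial oocytes, rose from 28.7 and 29.1 TPM at P5 to 72.4 and 107 at P10 (log2 difference 1.57, adjusted p = 0.00852). Bag1, a BCL2-binding co-chaperone, rose from 111 and 93.1 TPM at P5 to 380.3 and 573 at P10 (log2 difference 2.19, adjusted p = 0.000374). Birc6, an apoptosis inhibitor gene, rose from 10.6 and 12.9 TPM at P5 to 42.99 and 26.98 at P10. Bcl2 itself was low, at 0.0242 and 0.436 TPM at P5 and 3.52 and 11.5 at P10 (adjusted p = 0.00118), and P10 knockouts held 0 and 0.0811 TPM. Bcl2l1, for BCL-XL, fell from 6.51 and 3.51 TPM at P5 to 0.0565 and 0.0312 at P10. Of p53 targets and genes that promote death, 1 of 29 tested genes was called higher and 7 lower (median log2 difference -0.76), and 0 and 3 of these calls held under the 3 scalings (with 1 library left out, 0 to 1 higher and 3 to 7 lower, with GC centring 1 and 3, with voom 1 and 11). Bax, for the effector that permeabilizes mitochondria, fell from 242 and 257 TPM at P5 to 22.4 and 11.2 at P10 (log2 difference -3.89, adjusted p = 0.000281). Bid, for a BH3-only activator, fell from 25.1 and 22.00 TPM at P5 to 0.146 and 0.242 at P10 (log2 difference -4.36, adjusted p = 0.00377). Atm, for the DNA damage kinase, fell from 12.6 and 14.99 TPM at P5 to 3.85 and 0.553 at P10, with P10 replicates far apart. Mcl1 missed the test without P10 replicate 2 or P5 replicate 1 (adjusted p = 0.067 and 0.0516). Birc6 missed the test without P10 replicate 1 or P5 replicate 1 (adjusted p = 0.0738 and 0.0751). Atm missed the test without P10 replicate 2, P5 replicate 1 or P5 replicate 2 (adjusted p = 0.135, 0.0687 and 0.0801).

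Meiotic prophase genes, which oocytes use before birth, also went both ways. In the meiotic prophase list, 8 of 43 tested genes were called higher and 8 lower (median log2 difference -0.48), and 8 and 2 of these calls held under the 3 scalings (with 1 library left out, 4 to 5 higher and 2 to 8 lower, with GC centring 9 and 5, with voom 6 and 12). Syce2, for a central element protein of the synaptonemal complex, rose from 1077 and 919 TPM at P5 to 2195 and 2076 at P10 (log2 difference 1.10, adjusted p = 3.63e-05). Sycp2, of the lateral element, rose from 23.96 and 18.1 TPM at P5 to 69.4 and 66.8 at P10 (log2 difference 1.66, adjusted p = 0.00436). Mnd1, a recombination factor, rose from 857 and 746 TPM at P5 to 1949 and 1556 at P10. Terb1, which tethers telomeres to the nuclear envelope, rose from 34.8 and 44.3 TPM at P5 to 125 and 122 at P10. In these 4 genes both P10 libraries lay above both P5 libraries. Stag3, of meiotic cohesin, fell from 9.66 and 8.397 TPM at P5 to 0.768 and 0.224 at P10 (log2 difference -2.77, adjusted p = 0.0119). Mnd1 missed the test without P10 replicate 1 or P5 replicate 2 (adjusted p = 0.0534 and 0.052). Stag3 missed the test without P10 replicate 2 or P5 replicate 1 (adjusted p = 0.0701 and 0.0731).

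Called genes of the piRNA pathway and of early germ cells were more often lower than higher, as were all called genes on the TPM scale. In the piRNA pathway list, 2 of 23 tested genes were called higher and 7 lower (median log2 difference -0.92), and 2 and 3 of these calls held under the 3 scalings (with 1 library left out, 2 higher and 3 to 7 lower, with GC centring 2 and 3, with voom 2 and 10). Ddx4, the germ cell RNA helicase gene whose promoter drives the Cre of the P5 cross, rose from 102 and 143 TPM at P5 to 385 and 366 at P10 (log2 difference 1.63, adjusted p = 0.00283). Mov10l1, the helicase of piRNA biogenesis, fell from 148 and 229 TPM at P5 to 37.1 and 35.6 at P10 (log2 difference -2.31, adjusted p = 0.00122). Tex19.1, a germ cell gene that restrains transposons, fell from 137 and 84.7 TPM at P5 to 2.35 and 0.764 at P10. Tdrd9, another helicase of the pathway, fell from 39.9 and 49.8 TPM at P5 to 12.3 and 2.297 at P10. Of genes of pluripotent and primordial germ cells, 1 of 18 tested genes was called higher and 7 lower (median log2 difference -0.53), and 1 and 4 of these calls held under the 3 scalings (with 1 library left out, 1 to 2 higher and 4 to 5 lower, with GC centring 1 and 4, with voom 1 and 9). Lin28a, which blocks let-7 maturation, fell from 24.1 and 23.8 TPM at P5 to 0.1297 and 0.2505 at P10 (log2 difference -4.39, adjusted p = 1.48e-05). Pou5f1, for OCT4, fell from 116 and 121 TPM at P5 to 10.8 and 2.35 at P10 (log2 difference -4.25, adjusted p = 0.00104). Dnd1, for a germ cell RNA-binding protein, fell from 12.2 and 16.8 TPM at P5 to 0.107 and 0.0593 at P10. Dppa4, of pluripotent cells, fell from 33.7 and 46.7 TPM at P5 to 8.42 and 1.12 at P10, with P10 replicates far apart but both below P5. Dppa4 missed the test without P10 replicate 2 or P5 replicate 2 (adjusted p = 0.102 and 0.0683).

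Called chaperone genes were more often higher than lower by limma and equally often by voom. In the heat shock and chaperone list, 10 of 34 tested genes were called higher and 3 lower (median log2 difference 0.17), and 10 and 1 of these calls held under the 3 scalings (with 1 library left out, 6 to 10 higher and 2 to 3 lower, with GC centring 16 and 1, with voom 8 and 8). Besides Canx and Hsp90aa1, Hsp90b1, the HSP90 of the endoplasmic reticulum, rose from 422 and 427 TPM at P5 to 1543 and 1121 at P10 (log2 difference 1.63, adjusted p = 6.29e-05). Hsf2, for a heat shock factor active in germ cells, rose from 14.2 and 12.9 TPM at P5 to 87.1 and 62.1 at P10 (log2 difference 2.36, adjusted p = 0.000224). Cct7, of the cytosolic chaperonin, fell from 110.5 and 111 TPM at P5 to 26.7 and 38.5 at P10. In the integrated stress response list, 0 of 23 tested genes were called higher and 7 lower (median log2 difference -1.32), and 3 of these calls held under the 3 scalings (with 1 library left out, 0 higher and 3 to 7 lower, with GC centring 2 and 3, with voom 0 and 9). At an unadjusted p under 0.05 limma had 0 genes of this list higher and 10 lower. Ppp1r15a, for the phosphatase subunit that ends this response, fell from 33.5 and 33.2 TPM at P5 to 1.68 and 0.438 at P10. Phgdh, for serine synthesis, fell from 206 and 173 TPM at P5 to 3.08 and 5.75 at P10. Immediate early genes are known to respond to tissue dissociation. In the immediate early and dissociation list, 1 of 24 tested genes was called higher and 5 lower (median log2 difference -0.24), and 1 and 3 of these calls held under the 3 scalings (with 1 library left out, 1 higher and 2 to 3 lower, with GC centring 2 and 3, with voom 1 and 7). Ier2, of this class, fell from 364 and 313 TPM at P5 to 15.6 and 19.9 at P10. Btg1, an antiproliferative gene, rose from 67.7 and 78.04 TPM at P5 to 709 and 585 at P10 (log2 difference 3.13, adjusted p = 1.29e-05).

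Mitochondrially encoded genes were more often higher at P10, and nuclear genes of the respiratory chain more often lower on the TPM scale. Of the mitochondrially encoded genes, 6 of 13 tested genes were called higher and 1 lower (median log2 difference 0.59), and 6 and 0 of these calls held under the 3 scalings (with 1 library left out, 4 to 6 higher and 0 lower, with GC centring 6 and 0, with voom 4 and 0). mt-Cytb, of complex III, was at 5175 and 7692 TPM at P5 and 22969.7 and 20129 at P10 (log2 difference 1.77, adjusted p = 2.34e-05). mt-Co1, of complex IV, was at 999.6 and 1488 TPM at P5 and 4362 and 3670.2 at P10 (log2 difference 1.71, adjusted p = 0.00014). All mitochondrially encoded genes together took 1.69 and 1.93% of TPM at P5 and 4.31 and 3.39% at P10. Most of this gain came from mt-Cytb alone. P1 controls stood at 2.91 and 3.11%, so P5 was the lowest of the NGO control ages. The nuclear genes of the same machine differed. In the nuclear oxidative phosphorylation list, 8 of 71 tested genes were called higher and 35 lower (median log2 difference -0.52), and 7 and 13 of these calls held under the 3 scalings (with 1 library left out, 4 to 7 higher and 28 to 31 lower, with GC centring 21 and 13, with voom 4 and 46). Ndufv1, of complex I, fell from 681 and 733 TPM at P5 to 21.3 and 28.99 at P10 (log2 difference -4.78, adjusted p = 9.44e-06). Uqcrc1, of complex III, fell from 1051 and 954 TPM at P5 to 42.9 and 68.7 at P10 (log2 difference -4.18, adjusted p = 9.63e-06). Atp5d, of ATP synthase, fell from 94.5 and 68.4 TPM at P5 to 0.605 and 1.11 at P10. These 3 falls held under each scaling, but with GC centring more of the nuclear genes were higher than lower. Median GC content was 37.1% for the mitochondrially encoded list and 51.2% for the nuclear list.

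Called genes of glycolysis and lactate were more often lower than higher, as were called genes in general on the TPM scale. In the glycolysis and lactate list, 0 of 25 tested genes were called higher and 9 lower (median log2 difference -1.34), and 6 of these calls held under the 3 scalings (with 1 library left out, 0 higher and 7 to 10 lower, with GC centring 1 and 6, with voom 0 and 10). At an unadjusted p under 0.05 limma had 1 glycolysis gene higher and 14 lower. Pkm, for pyruvate kinase, fell from 139 and 125 TPM at P5 to 13.3 and 13.1 at P10 (log2 difference -3.23, adjusted p = 0.000116). Eno1, for enolase, fell from 110.1 and 83.7 TPM at P5 to 1.16 and 2.39 at P10 (log2 difference -5.16, adjusted p = 0.000504). Pfkm, for phosphofructokinase, fell from 8.01 and 6.21 TPM at P5 to 0.0776 and 0.342 at P10. In the tricarboxylic acid cycle, 2 of 21 tested genes were called higher and 4 lower (median log2 difference -0.42), and 2 and 3 of these calls held under the 3 scalings (with 1 library left out, 2 to 3 higher and 3 to 4 lower, with GC centring 3 and 3, with voom 2 and 7). Sucla2, of the ATP-forming succinyl-CoA synthetase, rose from 227 and 266 TPM at P5 to 1019 and 840.4 at P10 (log2 difference 1.91, adjusted p = 2.23e-05). Sdhd, a membrane anchor of succinate dehydrogenase, fell from 685 and 690.5 TPM at P5 to 42.4 and 86.1 at P10 (log2 difference -3.49, adjusted p = 2.9e-05). Mdh2, for malate dehydrogenase, fell from 416 and 395 TPM at P5 to 74.4 and 70.4 at P10. Called antioxidant genes were more often lower than higher, as were called genes in general on the TPM scale. In the glutathione and redox list, 1 of 32 tested genes was called higher and 9 lower (median log2 difference -1.11), and 1 and 6 of these calls held under the 3 scalings (with 1 library left out, 0 to 1 higher and 8 to 10 lower, with GC centring 3 and 7, with voom 1 and 16). Gpx4, the lipid peroxidase that blocks ferroptosis, fell from 305 and 279 TPM at P5 to 27.4 and 4.98 at P10 (log2 difference -4.49, adjusted p = 0.000218). Prdx4, for a peroxiredoxin of the secretory pathway, fell from 317 and 209.9 TPM at P5 to 39.99 and 11.5 at P10.

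**Figure D4:**
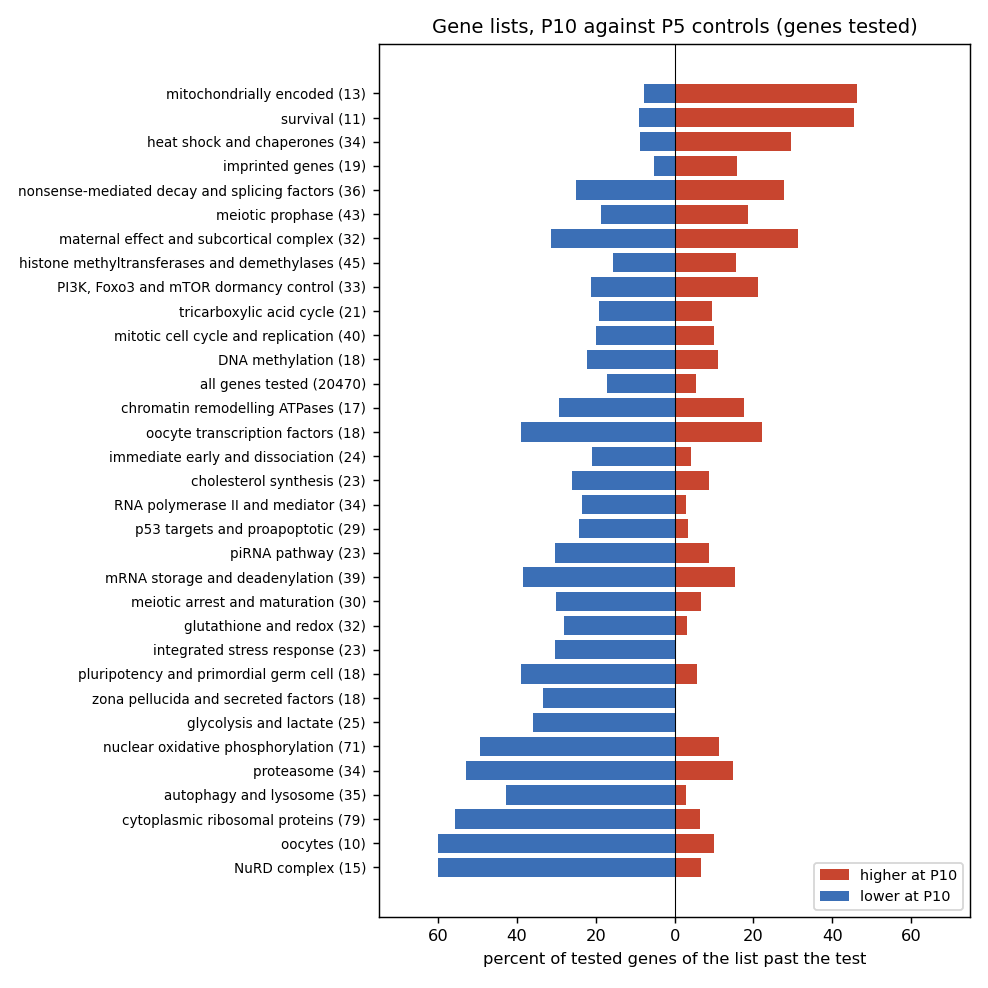
Percent of the tested genes of each list (number in parentheses) past the limma test, to the right for genes higher and to the left for genes lower at P10, with lists of under 10 member genes left out and all genes tested shown as a bar of its own. Mitochondrially encoded, survival and chaperone genes have their longer bar on the right, and ribosomal protein, proteasome and NuRD genes on the left, though with GC centring the ribosomal protein and proteasome lists had more genes higher than lower and NuRD had 3 of each, and with voom the chaperone list had 8 of each.

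Called genes for making and removing proteins were mostly lower on the TPM scale, as were called genes in general. In the cytoplasmic ribosomal proteins list, 5 of 79 tested genes were called higher and 44 lower (median log2 difference -0.56), and 5 and 10 of these calls held under the 3 scalings (with 1 library left out, 5 higher and 32 to 36 lower, with GC centring 17 and 12, with voom 5 and 58). The direction of the list therefore depended on the scaling. Rps19, of the small subunit, fell from 766 and 735 TPM at P5 to 67.7 and 80.3 at P10 (log2 difference -3.33, adjusted p = 1.58e-06). Rpl14, of the large subunit, fell from 1203 and 1139.9 TPM at P5 to 259 and 206 at P10 (log2 difference -2.34, adjusted p = 8.83e-06). Reads of ribosomal protein genes can be shared with their processed pseudogenes, which makes single values uncertain. In the proteasome list, 5 of 34 tested genes were called higher and 18 lower (median log2 difference -0.82), and 5 and 5 of these calls held under the 3 scalings (with 1 library left out, 3 to 5 higher and 9 to 16 lower, with GC centring 10 and 5, with voom 3 and 20). Psmb2, of the catalytic core, fell from 2778 and 2482 TPM at P5 to 604 and 842 at P10 (log2 difference -1.88, adjusted p = 4.41e-05). Psmd14, the deubiquitinase of the regulatory particle, rose from 306 and 274 TPM at P5 to 735 and 850.3 at P10 (log2 difference 1.45, adjusted p = 2.93e-05). Psmc2, an ATPase of the same particle, rose from 389.5 and 444 TPM at P5 to 1076 and 1287 at P10. In the autophagy and lysosome list, 1 of 35 tested genes was called higher and 15 lower (median log2 difference -0.98), and 1 and 8 of these calls held under the 3 scalings (with 1 library left out, 0 to 2 higher and 9 to 14 lower, with GC centring 3 and 9, with voom 1 and 20). Ctsd, for the protease cathepsin D, fell from 181 and 146 TPM at P5 to 11.2 and 1.89 at P10 (log2 difference -4.79, adjusted p = 0.000932). Lamp1, of the lysosomal membrane, fell from 336 and 336 TPM at P5 to 152 and 78.6 at P10. Hexa, for a lysosomal hexosaminidase, fell from 31.9 and 41.1 TPM at P5 to 0.974 and 0.4298 at P10.

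Regulators of stored mRNA changed in both directions. In the mRNA storage and deadenylation list, 6 of 39 tested genes were called higher and 15 lower (median log2 difference -0.72), and 6 and 6 of these calls held under the 3 scalings (with 1 library left out, 4 to 5 higher and 9 to 14 lower, with GC centring 8 and 7, with voom 3 and 17). Ythdf2, a reader of N6-methyladenosine that speeds mRNA decay, rose from 282 and 276 TPM at P5 to 1258 and 968 at P10 (log2 difference 1.98, adjusted p = 2.24e-05). Cpeb1, which represses and later activates stored mRNA, fell from 404 and 411 TPM at P5 to 124 and 104 at P10 (log2 difference -1.83, adjusted p = 0.000159). Ddx6, a helicase of repressed mRNA, fell from 116 and 128 TPM at P5 to 47.8 and 40.2 at P10. Among splicing and decay factors, 10 of 36 tested genes were called higher and 9 lower (median log2 difference 0.03), and 10 and 3 of these calls held under the 3 scalings (with 1 library left out, 6 to 7 higher and 3 to 8 lower, with GC centring 15 and 5, with voom 9 and 13). Srsf2, a splicing activator, rose from 51.9 and 54.9 TPM at P5 to 504 and 324 at P10 (log2 difference 2.90, adjusted p = 0.000233). Hnrnpu, a nuclear RNA-binding scaffold, rose from 54.7 and 49.1 TPM at P5 to 312 and 192 at P10. U2af2, which binds the polypyrimidine tract, fell from 11.05 and 9.79 TPM at P5 to 0 and 0.904 at P10. Among regulators of meiotic arrest and maturation, 2 of 30 tested genes were called higher and 9 lower (median log2 difference -0.53), and 2 and 3 of these calls held under the 3 scalings (with 1 library left out, 1 to 2 higher and 6 to 11 lower, with GC centring 3 and 3, with voom 2 and 13). Gpr3, the receptor that keeps oocytes arrested through cyclic AMP, was at 6.23 and 2.92 TPM at P5 and 0 and 0 at P10. By the same floor of 3 reads per library its group mean was at least 30.6-fold lower at P10 (adjusted p = 0.00086). Mos, whose kinase holds mature eggs at metaphase, was at 200.01 and 241 TPM at P5 and 0.984 and 27.8 at P10, with P10 replicates far apart (adjusted p = 0.00506). Mad2l1, of the spindle checkpoint, rose from 128 and 144 TPM at P5 to 352 and 451 at P10 (log2 difference 1.55, adjusted p = 8.24e-05).

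Of histone methylation genes, 7 of 45 tested genes were called higher and 7 lower (median log2 difference -0.25), and 7 and 0 of these calls held under the 3 scalings (with 1 library left out, 4 to 6 higher and 1 to 2 lower, with GC centring 8 and 1, with voom 7 and 11). Ezh2, the methyltransferase gene of Polycomb complex 2, rose from 20.9 and 25.01 TPM at P5 to 175 and 191 at P10 (log2 difference 2.94, adjusted p = 0.000115). Kdm1b, for the demethylase that oocytes need to set maternal imprints, rose from 122 and 137 TPM at P5 to 390.2 and 289.9 at P10 (log2 difference 1.37, adjusted p = 0.000567). In the DNA methylation list, 2 of 18 tested genes were called higher and 4 lower (median log2 difference -0.26), and 1 and 1 of these calls held under the 3 scalings (with 1 library left out, 1 higher and 2 to 3 lower, with GC centring 2 and 1, with voom 1 and 8). Trim28, whose product protects imprints, fell from 33.1 and 16.8 TPM at P5 to 4.301 and 0.516 at P10. Of imprinted genes, 3 of 19 tested genes were called higher and 1 lower (median log2 difference 0.00), and 3 and 0 of these calls held under the 3 scalings (with 1 library left out, 1 to 3 higher and 0 to 2 lower, with GC centring 5 and 0, with voom 3 and 3). Igf2r, for the receptor that clears IGF2, rose from 13.9 and 15.03 TPM at P5 to 48.1 and 32.6 at P10 (log2 difference 1.40, adjusted p = 0.0125). In the list of cell cycle and replication genes, 4 of 40 tested genes were called higher and 8 lower (median log2 difference -0.72), and 4 and 2 of these calls held under the 3 scalings (with 1 library left out, 1 to 3 higher and 2 to 6 lower, with GC centring 5 and 2, with voom 3 and 15). Pcna, for the replication clamp, rose from 121 and 104 TPM at P5 to 282 and 318 at P10. Gins2, of the replicative helicase, fell from 303 and 262 TPM at P5 to 17.5 and 45.8 at P10 (log2 difference -3.27, adjusted p = 0.00276). Igf2r missed the test without P10 replicate 1 or P5 replicate 1 (adjusted p = 0.0788 and 0.072).

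For cholesterol synthesis, 2 of 23 tested genes were called higher and 6 lower (median log2 difference -0.38), and 2 and 2 of these calls held under the 3 scalings (with 1 library left out, 2 higher and 3 to 6 lower, with GC centring 3 and 2, with voom 2 and 7). Insig1, for the protein that retains the activator of sterol synthesis SREBP in the endoplasmic reticulum, rose from 144 and 151 TPM at P5 to 1298 and 1044 at P10 (log2 difference 2.97, adjusted p = 3.88e-06). The kinases of the pathway were lower. Pmvk, for phosphomevalonate kinase, fell from 68.3 and 69.02 TPM at P5 to 6.66 and 0.417 at P10. Mvk, for mevalonate kinase, fell from 8.14 and 4.52 TPM at P5 to 0 and 0.1603 at P10. In the RNA polymerase II and mediator list, 1 of 34 tested genes was called higher and 8 lower (median log2 difference -0.48), and 1 and 0 of these calls held under the 3 scalings (with 1 library left out, 0 to 1 higher and 7 to 8 lower, with GC centring 6 and 0, with voom 0 and 15).

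A few genes set P10 resting oocytes apart from the other control groups. A set of 8 genes was at TPM 20 or more in both P10 NGO controls and over 5 times higher there than in every P1, P5 and GO control library. They were chosen by these values, so the levels are a description. Besides Micu3 and Zfp317 they were Acot2, Hykk, Stk39, Spint4 and the predicted genes Gm14736 and Gm45629. Acot2, for a mitochondrial acyl-CoA thioesterase, was at 230.7 and 227 TPM in P10 NGO, 26.7 and 35.4 at P5, and 32.5 and 37.3 in GO. Stk39, for a kinase of ion transport, was at 21.9 and 24.6 TPM in P10 NGO, 1.897 and 0.806 at P5, and 2.05 and 2.59 in GO. Hykk, for hydroxylysine kinase, was at 82.6 and 87.6 TPM in P10 NGO, 8.38 and 13.2 at P5, and 9.78 and 8.63 in GO. The choice did not use the P10 NGO knockouts. They held 642 and 1194 TPM of Micu3, 345 and 480.1 of Zfp317, 100.1 and 145 of Acot2, 35.03 and 71.1 of Stk39 and 60.6 and 57.1 of Hykk. Spint4 was at 60.01 and 7.26 TPM there, Gm14736 at 64.4 and 93.6 and Gm45629 at 14.6 and 2.63. Both knockout libraries were above every P1, P5 and GO control library for each gene except Gm45629. Of that gene the P1 controls held 1.77 and 3.395 TPM, the P5 controls 4.39 and 9.71 and the GO controls 5.74 and 1.105, so knockout replicate 2 was below 4 of these 6 libraries.

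The knockouts give a second comparison of P10 with P5 that shares no library with the controls. Their genotypes also differ with age, Chd4 f/- with Ddx4-Cre at P5 and Chd4 f/f with Gdf9-iCre at P10. In knockouts 1299 genes were higher and 4307 lower at P10, 6.35% and 21% of the genes tested (27.4% in either direction). The calls were 51.4% higher under quantile normalization, 39.9% under median-of-ratios scaling, 56.3% with GC centring and 13.8% with voom, against 23.2% as deposited. The 5606 calls went to 3423 without P5 knockout replicate 2 and 3567 without P10 knockout replicate 2. Of the 1135 genes higher in controls, 778 (68.6%) were also higher in knockouts and 11 were lower. Of the 3504 lower in controls, 2229 (63.6%) were also lower and 10 were higher. These 778 and 2229 genes are 59.9% and 51.8% of the knockout lists of 1299 and 4307. Canx had a log2 difference of 4.55 in knockouts, past the test. For Cdkn2a it was -6.32, for Sohlh1 -4.21 and for Figla -1.47, each past the test. Foxo3 had 2.49 and Zp1 -2.49, also past it. Chd4 itself had -2.12, from 8.28 and 4.94 TPM at P5 to 1.34 and 0.247 at P10.

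**Figure D5:**
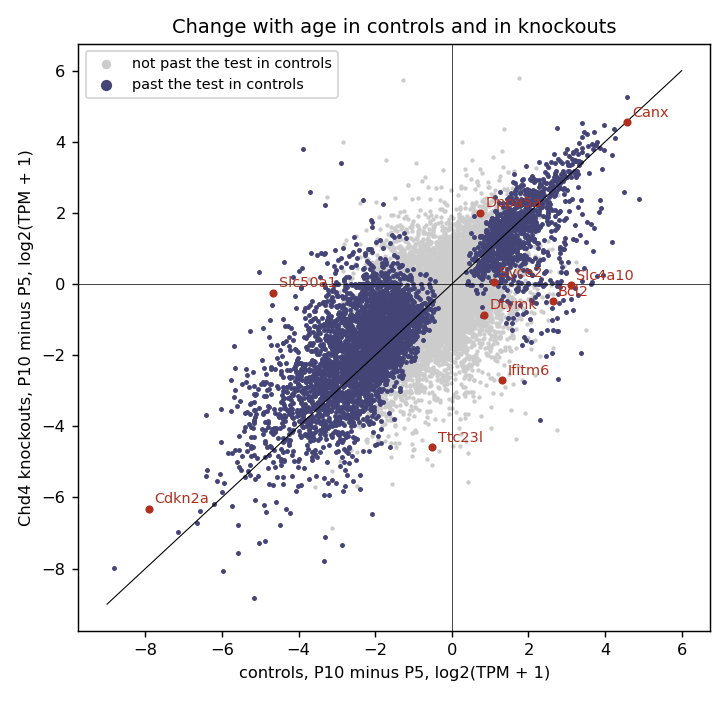
log2 difference between P10 and P5 in controls (x axis) and in Chd4 knockouts (y axis) for the member genes, with genes past the test in controls in dark blue, equal change as the diagonal and named genes in red. Canx and Cdkn2a lie near the diagonal, and Slc50a1, Slc4a10, Ttc23l and Ifitm6 lie far from it.

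The change from P5 to P10 differed between knockouts and controls for 34 genes (0.166% of those tested), with 9 differences above 0 and 25 below (0.044% and 0.122%), and for 2201 at an unadjusted p under 0.05. Under quantile normalization 37 differences were above 0 and 41 below. With only the 8 libraries of these 4 groups limma called 0 genes, with 1891 at an unadjusted p under 0.05, and voom over all 16 oocyte libraries called 170. Slc50a1, a sugar transporter gene, fell from 33.3 and 35.7 TPM at P5 to 0.5303 and 0.293 at P10 in controls. Knockouts were at 31.6 and 24.8 TPM at P5 and 21.3 and 26.1 at P10, so P10 controls were the low group of the 4 (difference of the log2 changes 4.42, adjusted p = 0.0225). Slc4a10, for a bicarbonate transporter, rose from 0 and 0 TPM at P5 to 5.57 and 10.2 at P10 in controls, at least 153-fold by the floor of 3 reads. Knockouts were at 0 and 0.0876 TPM at P5 and 0 and 0.0386 at P10 (difference of the log2 changes -3.14, adjusted p = 0.0173). Ifitm6, of the interferon-induced transmembrane family, was at 14.7 and 10.3 TPM at P5 and 26.6 and 38.4 at P10 in controls. Knockouts were at 7.84 and 12.4 TPM at P5 and 0.8202 and 0.547 at P10, so their P10 libraries were the lowest (difference of the log2 changes -4.01, adjusted p = 0.0202). Ttc23l was at 19.2 and 15.8 TPM at P5 and 12.1 and 11.7 at P10 in controls and did not pass the test there. Knockouts were at 31.4 and 29.7 TPM at P5 and 0.389 and 0.227 at P10 (difference of the log2 changes -4.08, adjusted p = 0.0119). Dtymk, for thymidylate kinase, rose from 153 and 161 TPM at P5 to 279 and 288 at P10 in controls. Knockouts were at 195 and 187 TPM at P5 and 111 and 97.5 at P10 (difference of the log2 changes -1.71, adjusted p = 0.0173). Dppa5a, for an RNA-binding KH-domain protein of germ cells, rose from 3679 and 3553 TPM at P5 to 6051 and 5936 at P10 in controls. Knockouts were at 2185 and 1883 TPM at P5 and 7818 and 8524 at P10, with the larger difference (difference of the log2 changes 1.28, adjusted p = 0.0148). Syce2, which rose in controls, was at 1679 and 1887 TPM at P5 and 1686 and 2004 at P10 in knockouts (difference of the log2 changes -1.05, adjusted p = 0.0248). Slc50a1 in the difference missed the test without P5 knockout replicate 2 or P5 replicate 2 (adjusted p = 0.0507 and 0.0788). Slc4a10 in the difference missed the test without P5 replicate 2 (adjusted p = 0.0535). Ifitm6 in the difference missed the test without P5 replicate 2 (adjusted p = 0.0768). Dtymk in the difference missed the test without P5 replicate 2 (adjusted p = 0.0535).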

How the data were processed

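RNA of oocytes was sequenced as low-input paired-end libraries, and 16 of them, 2 per group, form the oocyte table. Per the submitters' processing notes, the build was GRCm38, and the tools listed are featureCounts 2.0.1 and SAMtools 1.9 together with the aligner STAR 2.5.4b and the trimmer Trimmomatic 0.39. The authors deposited TPM per gene symbol, and the annotation and strand setting behind it are not given in the sources used here. Reads from overlapping or antisense genes therefore cannot be told apart. Symbols were matched to GENCODE M21 for 51618 genes to get length, position and GC content.

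TPM as deposited was tested as log2(TPM + 1) with limma 3.58.1 in R 4.3.3. All 16 oocyte libraries entered 1 fit with 1 mean per group (8 residual degrees of freedom), over the 20470 genes with TPM at least 1 in 2 libraries. Benjamini-Hochberg adjusted p under 0.05 over all these genes was the threshold. A negative difference means lower at P10. On simulated data for this comparison (19203 genes), 10.4%, 62.7% and 95.5% of genes changed by log2 1, 2 and 4 were called, with 33 calls among 19003 unchanged genes. So changes near log2 1 are often missed at 2 libraries a group. The simulation changed only genes of moderate TPM and drew a reduced spread between libraries besides counting error. It held no shift with GC content, so its false calls do not cover such a shift in the real data.

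Low TPM values were whole multiples of 1 read for 98.7 to 99.1% of genes with few reads (within 0.05 of a whole number), which gave reads per library. A count test on these reads used voom with weights capped at their 99th percentile, since its trend of spread fell below 0 for the most abundant genes. Voom and the centring of each library within 20 strata of GC content were chosen after seeing the data. The floor for a gene at 0 in a group is 3 reads per library and covers counting error only.

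The members and lists were chosen with earlier results of these data known. Named genes are Chd4, the 10 largest rises and falls on the log2 scale (mean TPM at least 5 in 1 group, no overlap, no predicted gene), the 5 largest in TPM, up to 6 per list with the smallest p, and up to 6 for the difference between knockouts and controls. Outside this rule, and chosen after their values were seen, are Bmp15, Cdkn1b, Kit, Lhx8, Nlrp9c, Obox1, Ooep, Rps6kb1, Sohlh2, Syce2 in the difference, Taf4b, Taf7l, Tbpl2, Yy1 and the 8 genes highest in P10 resting oocytes. Promoters are RefSeq entries. Single values of some genes in the lists are not reported here. The male table of the series was not used here.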

Additional observations from a re-analysis of the deposited data

Results flagged for a closer look

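By limma's test of the difference itself, the change from P5 to P10 differed between knockouts and controls for 34 genes. The 7 of them named above are given here, as the log2 change in knockouts minus that in controls. The genotypes differ at both ages, so the difference cannot be assigned to Chd4 at a single age. Slc50a1 had a difference of 4.42 and Dppa5a of 1.28. The differences below 0 were -4.08 for Ttc23l, -4.01 for Ifitm6, -3.14 for Slc4a10, -1.71 for Dtymk and -1.05 for Syce2. With only the 8 libraries of these groups in the fit, none of the 7 passed the test (adjusted p 0.147 to 0.179).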

How the results depend on the processing

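The count of genes called in controls, 4639, ranged from 3183 with GC centring to 5890 with voom over the settings that kept all libraries, and from 2591 (without P5 replicate 1) to 3699 with 1 library left out. For knockouts, 5606 calls ranged from 3896 with GC centring to 7232 with voom with all libraries kept, and from 3423 (without P5 replicate 2) to 5220 with 1 left out. The count of 34 differences between knockouts and controls became 75 with pseudocount 0.1, 21 with a filter of TPM 5, 181 with no filter, 78 with quantile normalization, 22 with median-of-ratios scaling, 22 with GC centring, 170 with voom and 0 with only the libraries compared, where fewer samples enter the fit. It ranged from 13 to 209 with 1 library left out. The cause of the other moves was not tested. A lone library left in a group was assumed to vary like the other groups. Under GC centring Ldhb turned to 0.15 and Tmsb10 to 0.66. Of 136 named genes called in controls, 116 kept direction and call in every setting run. Same-numbered P5 and P10 control libraries did not deviate together (correlation -0.02), and with the replicate number as a block the counts were 4493 in controls, 5449 in knockouts and 23 for the difference. Depth limits what can be said of genes near 0 TPM, whose floor is 3 reads per library.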
